A study of Mus musculus with 11 samples.

Results

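Control 2-cell mouse embryos cultured with α-amanitin were compared with untreated control embryos on Affymetrix whole-transcript arrays. The 6 arrays of these 2 groups were chosen by their titles among the 11 arrays of the series, and the other 5 carry embryos of a second, mutant genotype. Each group had 3 arrays, and each array held the RNA of a batch of 40 from a pool of several mice, named as oocytes in the extract protocol and as 2-cell embryos in all other labels. α-amanitin embryos were moved at 6 h after fertilization into medium that held 24 µg/ml of the drug and were collected at 35 h. Untreated embryos received none, and the sources used here do not give their harvest time. Both groups are labelled maternal Ring1-Rnf+ on a mixed 129/Sv and C57BL/6J background, so as labelled they all come from eggs without Ring1, a Polycomb gene, and are not wild type. The eggs came from superovulated females of 5 to 10 weeks and met wild-type sperm in vitro, from control males of 10 to 16 weeks. Which promoter or Cre line removed the maternal alleles is not stated in these sources.

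The mouse egg stops transcribing before it ovulates and starts development on stored RNA and protein. After fertilization most of that RNA is degraded, and the embryo's own genome is switched on, with the main wave at the 2-cell stage. α-amanitin binds RNA polymerase II and blocks it, so that embryos treated before this wave carry mainly RNA that came with the egg. RNA polymerase I, which makes ribosomal RNA, and the mitochondrial polymerase are known to be resistant to it.

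The values are log2 array values as deposited, 1 per probe set, and a probe set stands for a short list of probes against 1 transcript. Array medians lay between 4.45 and 4.53 on the 6 arrays, and a value was called dim when it lay under the 75th percentile of its own array. That percentile was 4.93 to 5.02 on the α-amanitin arrays and 5.20 to 5.28 on the untreated arrays. Correlations between arrays were 0.975 to 0.976 within the α-amanitin group, 0.981 to 0.984 within the untreated group and 0.805 to 0.822 between the groups, and no pair of arrays was identical. The labels call the replicates biological, the number of arrays limits the precision, and an exact permutation test of 3 against 3 arrays cannot give a p below 0.1. No spike-in entered the values used here, so a change shared equally by all RNAs would be missed, and fewer cells and less RNA per cell cannot be told apart in pooled embryos. Rnf2, the Polycomb gene that the control eggs keep, had values of 7.31, 6.89 and 7.02 in α-amanitin embryos, against 6.84, 6.59 and 6.71 in untreated embryos. Ring1 had 4.53, 4.59 and 4.62 in α-amanitin embryos, against 4.55, 4.79 and 4.35 in untreated embryos, dim on all 6 arrays. Whether the Ring1 probes lie in its deleted part is not known, so these values do not check the genotype.

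All differences below are untreated minus α-amanitin, so a positive value means lower with α-amanitin. They come with limma's standard error (±) and a 2-sided p adjusted by the Benjamini-Hochberg method over all 34760 probe sets, and an adjusted p below 0.05 counts as a change. A gene is the brightest of its probe sets, averaged over all 11 arrays, among those with 1 gene symbol. For every gene described as lower or higher, all 3 values of one group lay above all 3 of the other.

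A large set of RNAs was lower in α-amanitin embryos than in untreated embryos, and another set was higher and changed less. Of 21437 genes, 7221 changed (33.7 percent of all genes). With α-amanitin, 4165 genes were lower (19.4 percent of all genes) and 3056 were higher (14.3 percent). Among probe sets, 9473 of 34760 changed (27.3 percent), 5527 of them lower (15.9 percent) and 3946 higher (11.4 percent). The sizes were unequal. A difference of at least 1, which is a factor of 2, was met by 1931 lower and 542 higher genes, a difference of at least 2 by 688 lower and 18 higher genes, and a difference of at least 3 by 204 lower and 0 higher genes. Without a threshold, all 3 arrays of one group lay above all 3 of the other for 10203 genes (47.6 percent) and for 40.1 percent of probe sets. The median difference over all genes was -0.04. The share of called probe sets that were lower depended on the scaling: it was 58.3 percent on the deposited values and 43.2 percent after quantile normalization of them, which called 4717 lower and 6194 higher. No probe set was called in opposite directions by these scalings, with 4565 lower in both and 3848 higher in both.

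**Figure D1:**
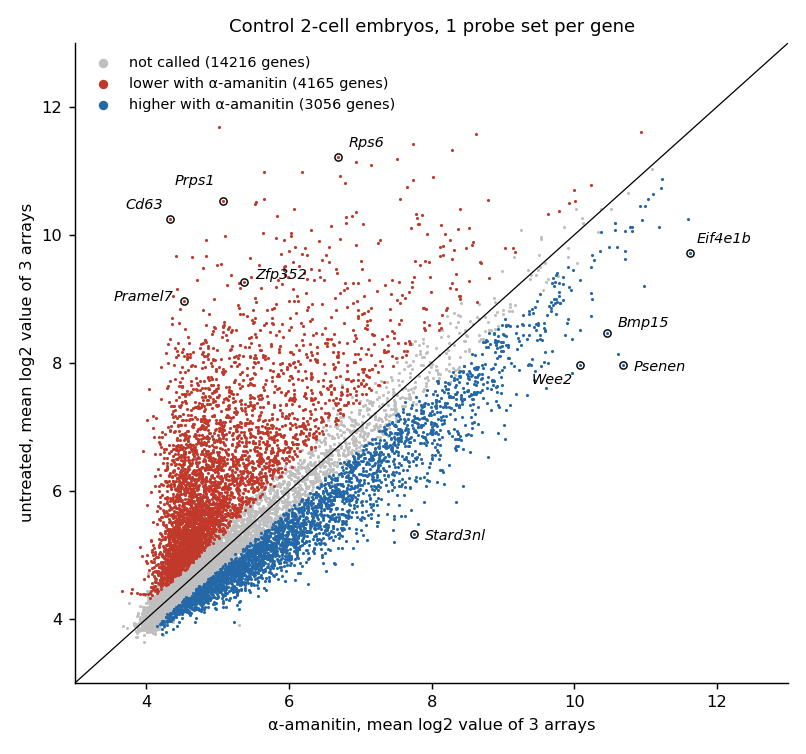
Each point is 1 of 21437 genes, with its mean log2 value in 3 α-amanitin arrays on the x axis and in 3 untreated arrays on the y axis, and the line marks equal values. Genes lower with α-amanitin (red, 4165) reach a difference of 6.66, while genes higher with α-amanitin (blue, 3056) stay within 2.72 of the line.

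The level classes show the same inequality from another side. For 504 genes that fell with α-amanitin, all α-amanitin arrays were dim while all untreated arrays were at 6 or more. The reverse, dim on all untreated arrays and 6 or more on all α-amanitin arrays, held for 36 genes. Another 1851 genes were at 6 or more on all 6 arrays: 421 of them were lower with α-amanitin, 832 were higher and 598 did not pass the test. On all 6 arrays 13145 genes were dim, and a dim value gives little room to fall.

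The measured difference was largest among the named genes for Cd63, a tetraspanin of late endosomes and exosomes. Cd63 had 4.14, 4.48 and 4.38 in α-amanitin embryos, against 10.44, 10.11 and 10.20 in untreated embryos (5.92 ± 0.25, adjusted p = 1.01e-07). All 3 α-amanitin values lay below the medians of their arrays, so the difference is a lower limit of the fall. The same holds for other genes whose α-amanitin values all lay below the medians of their arrays. The order of such genes depends on their untreated level. A clone-named gene with a difference of 6.66 was passed over. 3 enzymes of purine nucleotide synthesis were also among the 6 named genes with the largest differences. Prps1, which makes the phosphoribosyl pyrophosphate on which purines are built, had 5.16, 5.07 and 4.98 in α-amanitin embryos, against 10.56, 10.45 and 10.59 in untreated embryos (5.46 ± 0.27, adjusted p = 1.61e-07). Impdh2, the rate-limiting enzyme of guanine nucleotide synthesis, had 5.90, 5.43 and 5.64 in α-amanitin embryos, against 11.04, 10.82 and 11.06 in untreated embryos (5.32 ± 0.30, adjusted p = 2.97e-07), and its probe sets had a median of 4.75. Ppat, which catalyses the first committed step of purine synthesis, had 4.74, 4.54 and 4.64 in α-amanitin embryos, against 9.88, 9.45 and 9.60 in untreated embryos (5.01 ± 0.25, adjusted p = 1.58e-07). For these 3 enzymes the groups were far apart and the arrays within a group lay close together.

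The other genes among the 20 with the largest fall with α-amanitin came from many parts of the cell. Selenos, a selenoprotein of the endoplasmic reticulum, differed by 5.26 ± 0.21, Pdxk, which makes the active form of vitamin B6, by 5.09 ± 0.35, and Alppl2, an alkaline phosphatase, by 4.98 ± 0.31. Gabarapl2, a ubiquitin-like protein of autophagosomes, differed by 4.95 ± 0.27 (2.98 as the median of its 2 probe sets), and the lysosomal protease Ctsc by 4.67 ± 0.35. Carriers were the phosphate transporter Slc34a2 (4.88 ± 0.24) and the thiamine transporter Slc19a3 (4.54 ± 0.17). Tomm20, the receptor at which proteins enter the mitochondrion, had 4.72, 4.71 and 4.71 in α-amanitin embryos, against 9.51, 9.12 and 9.24 in untreated embryos. Bola2, a factor of iron-sulfur cluster transfer, differed by 4.39 ± 0.21, and the spliceosome protein Cdc5l by 4.68 ± 0.28. Cdc5l has 4 probe sets, of which 3 were called lower, and their median difference was 2.14. The remaining 6 of the 20, which are Rpl36al, Rps6, Rps25, Psmb5, Pramel7 and Nop16, are described with their groups.

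Genes known for a burst of transcription at the 2-cell stage were mostly lower with α-amanitin. The list was chosen with earlier results of these data known, so it does not check the labelled stage. Of 23 measured genes of this list, 20 were lower (87.0 percent, against 19.4 percent of all genes), 0 were higher and 3 did not pass the test. The median difference was 2.04, against -0.04 over all genes, and 9 of the 23 were dim with α-amanitin and at 6 or more in untreated embryos. Zfp352, a zinc finger gene of the early embryo, had 5.26, 5.55 and 5.30 in α-amanitin embryos, against 8.96, 9.56 and 9.26 in untreated embryos (3.89 ± 0.17, adjusted p = 1.03e-07). Pramel7, a leucine-rich repeat protein of the early embryo, had 4.61, 4.60 and 4.38 in α-amanitin embryos, against 8.88, 8.88 and 9.12 in untreated embryos (4.43 ± 0.21, adjusted p = 1.45e-07), and its neighbour in the family, Pramel6, differed by 2.22 ± 0.11. Tdpoz5, of a family of speckle-type POZ proteins, had 4.29, 4.71 and 4.42 in α-amanitin embryos, against 6.87, 6.99 and 7.21 in untreated embryos (2.55 ± 0.14, adjusted p = 2.15e-07). The homeobox gene Obox6 differed by 2.68 ± 0.17, Ubtfl1 by 3.24 ± 0.20 and Sp110 by 3.15 ± 0.22. The 3 that did not pass were Arg2 (0.34), Usp17la (0.20) and Usp17ld (0.04). Tdpoz, Pramel and Usp17l genes have near-identical copies, so a probe set may read more than 1 of them. Probe sets of the Zscan4 family, the best-known 2-cell genes, carried several gene symbols and are not named here.

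Promoters of 4 genes are shown as examples. They belong to an activation gene, a purine enzyme and a ribosomal protein that were lower with α-amanitin, and an egg kinase that was higher. The array values are RNA levels and do not measure start sites or promoter activity. They were chosen after the values were seen. Each runs from 250 bases before to 50 bases after the start in GRCm38.p6, 5′ to 3′ on the gene's own strand, from the RefSeq promoter table. Capitals mark every match, on either strand, to 6 motifs: CCAAT (the CCAAT box), TATAAA (the TATA box), GGGCGG (the GC box), CCGGAAG (the core of Ets-family sites), TCAAGGNCA (the site of Nr5a2 and Esrrb) and GGATTA (the core of bicoid-type homeodomain sites such as those of Obox and Otx).
Zfp352 (chr4:90218570-90218869, plus strand): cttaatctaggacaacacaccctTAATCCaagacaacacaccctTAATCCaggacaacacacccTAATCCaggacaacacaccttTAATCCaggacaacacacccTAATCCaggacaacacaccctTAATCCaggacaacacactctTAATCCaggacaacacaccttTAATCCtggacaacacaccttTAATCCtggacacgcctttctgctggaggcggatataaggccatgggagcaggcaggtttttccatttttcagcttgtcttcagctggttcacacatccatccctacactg
Ppat (chr5:76951529-76951828, minus strand): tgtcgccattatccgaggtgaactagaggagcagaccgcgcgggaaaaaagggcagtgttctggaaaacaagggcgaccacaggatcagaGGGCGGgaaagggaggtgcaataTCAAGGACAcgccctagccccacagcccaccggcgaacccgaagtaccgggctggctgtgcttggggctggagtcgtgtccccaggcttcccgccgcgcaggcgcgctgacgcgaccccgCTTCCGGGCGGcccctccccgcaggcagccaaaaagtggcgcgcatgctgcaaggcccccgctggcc
Rps6 (chr4:86857318-86857617, minus strand): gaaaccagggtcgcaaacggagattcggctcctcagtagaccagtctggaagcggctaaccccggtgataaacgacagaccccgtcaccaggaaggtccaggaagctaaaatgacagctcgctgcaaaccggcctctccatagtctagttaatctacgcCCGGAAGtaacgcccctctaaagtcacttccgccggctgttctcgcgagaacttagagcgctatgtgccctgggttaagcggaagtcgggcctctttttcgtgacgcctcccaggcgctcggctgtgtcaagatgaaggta
Wee2 (chr6:40442613-40442912, plus strand): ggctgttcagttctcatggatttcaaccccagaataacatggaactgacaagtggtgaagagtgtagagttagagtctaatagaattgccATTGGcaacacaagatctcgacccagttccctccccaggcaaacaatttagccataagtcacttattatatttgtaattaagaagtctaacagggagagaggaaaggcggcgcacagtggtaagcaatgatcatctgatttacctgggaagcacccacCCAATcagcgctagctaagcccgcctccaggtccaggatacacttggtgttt

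In the Zfp352 promoter GGATTA was found 9 times on the minus strand, where it reads TAATCC in the printed strand, with first bases between -227 and -61 relative to the start. The matches sit in a tandem repeat. Of 27025 promoters in the table, 1 held 9 or more matches, that of Zfp352, the next highest number was 4, and 104 promoters (0.38 percent) held 2 or more. Ppat held a GC box at -160, the Nr5a2 and Esrrb motif at -137, and an Ets core and a GC box that overlap by 2 bases at -17 and -12. Rps6 held an Ets core at -91 and no other of the 6 motifs. Wee2 held 2 CCAAT boxes, at -160 on the minus strand and at -2.

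Shares of promoters with each motif were counted over 15553 of the 21437 genes, those with a promoter in the table. CCGGAAG was in 30 of the 100 promoters of the largest falls with α-amanitin (30.0 percent), against 10.0 percent of the 100 of the largest rises and 12.6 percent of all measured promoters. Over all called genes it was in 24.2 percent of 3202 lower and 12.4 percent of 2397 higher genes. Of 3461 genes with a mean of at least 6 in either group, 22.0 percent held it, and the part of expression level in the difference was not tested. GGGCGG was in 64.0 percent of the largest falls, 52.0 percent of the largest rises and 50.3 percent of all measured promoters. Over all called genes GGGCGG was in 64.7 percent of lower and 61.3 percent of higher genes, and in 68.4 percent of the genes with a mean of at least 6. CCAAT was in 34.0 percent of the largest falls, 34.0 percent of the largest rises and 38.3 percent of all measured promoters, and over all called genes in 41.9 percent of lower and 35.2 percent of higher genes, against 39.9 percent of those with a mean of at least 6. For the same 3 sets, TATAAA was in 8.0, 10.0 and 12.1 percent, GGATTA in 11.0, 7.0 and 6.3 percent, and TCAAGGNCA in 2.0, 0.0 and 1.3 percent. Over all called genes, GGATTA was in 6.4 percent of lower and 4.8 percent of higher genes. TATAAA was in 7.2 and 7.4 percent of them, and TCAAGGNCA in 1.2 and 0.9 percent. Of the genes with a mean of at least 6, 6.0 percent held GGATTA, 6.7 percent TATAAA and 1.0 percent TCAAGGNCA. Over the whole promoter table the shares were 9.1 percent for CCGGAAG, 35.9 percent for GGGCGG, 37.9 percent for CCAAT, 14.2 percent for TATAAA, 7.2 percent for GGATTA and 1.6 percent for TCAAGGNCA. A match is a run of letters and not a bound site.

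RNAs for building ribosomes were lower with α-amanitin with few exceptions. Of the measured genes 19.4 percent were lower, and all 73 cytosolic ribosomal protein genes were lower, with a median difference of 2.95 and a range from 0.60 to 4.53. That median was 2.59 after quantile normalization, 3.15 after cyclic loess and 2.32 with the median of each gene's probe sets. Rpl30, a protein of the large subunit, had 7.14, 6.93 and 6.75 in α-amanitin embryos, against 11.31, 11.03 and 11.07 in untreated embryos (4.19 ± 0.16, adjusted p = 9.75e-08), and 8 of its 9 probe sets were called lower, with a median of 2.04 over them. Rpl41, the smallest protein of the large subunit, differed by 2.88 ± 0.11 (3.53 as the median of its probe sets), Rps21 by 3.43 ± 0.13 and Rpl23a by 3.52 ± 0.16, with 7 of 9 probe sets called lower and a median of 1.42 over them. Rps6, the ribosomal protein phosphorylated by S6 kinases, had 6.40, 6.73 and 6.95 in α-amanitin embryos, against 11.24, 11.15 and 11.28 in untreated embryos (4.53 ± 0.41, adjusted p = 7.99e-06), with 5 of 7 probe sets called lower and a median of 2.72 over them. Rps25 differed by 4.50 ± 0.29 with 5 of 6 probe sets called lower and a median of 2.97. Rpl36al, which is not among the 73 and is related to a gene of the large subunit, differed by 4.80 ± 0.31. Ribosomal protein genes have many pseudogene copies, and the probes may read RNA from these. Probe set numbers mostly run by chromosome. For some other genes the brightest probe set is numbered among those of another chromosome. Impdh2, Tomm20, Gabarapl2, Nme2, Dppa3, Ccnb1 and Kpna2 are examples. Such probe sets may read a copy elsewhere in the genome, which was not tested.

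Ribosome biogenesis factors, which process ribosomal RNA and assemble the subunits in the nucleolus, had 79 of 82 members lower, 1 higher and 2 that did not pass, with a median of 1.98. In this list 36 genes were dim with α-amanitin and at 6 or more in untreated embryos. Nop16, a nucleolar protein of large-subunit assembly, had 4.68, 4.49 and 4.23 in α-amanitin embryos, against 9.07, 8.78 and 8.69 in untreated embryos (4.38 ± 0.23, adjusted p = 1.89e-07). Bop1, of the PeBoW complex that processes the large-subunit RNA, had 4.65, 4.71 and 4.68 in α-amanitin embryos, against 6.97, 6.73 and 6.86 in untreated embryos (2.17 ± 0.10, adjusted p = 1.24e-07). Rrp15 differed by 1.98 ± 0.09, the small-subunit factor Pno1 by 1.99 ± 0.09, and Mdn1, the giant ATPase that strips factors from the maturing large subunit, by 1.86 ± 0.09. The member that was higher was Npm3, a nucleoplasmin, at 6.00 ± 0.07 in α-amanitin embryos and 5.69 ± 0.07 in untreated embryos (SD, n = 3 each), a difference of -0.31 ± 0.09, adjusted p = 0.0254, a call lost under 5 alternatives, with adjusted p of 0.0513 to 0.0959 without α-amanitin replicate 1 or 2 or untreated replicate 1 or 2.

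Subunits of the RNA polymerases and their general factors were lower for 30 of 38 genes, higher for 3 and not called for 5, with a median of 1.58. Polr2a encodes the large subunit of RNA polymerase II, to which α-amanitin binds. Polr2a had 5.18, 5.27 and 5.20 in α-amanitin embryos, against 6.32, 6.56 and 6.32 in untreated embryos (1.19 ± 0.11, adjusted p = 1.05e-05). Among smaller subunits, Polr2l had 7.87, 7.96 and 7.60 in α-amanitin embryos, against 10.25, 10.06 and 10.19 in untreated embryos and differed by 2.36 ± 0.12, Polr2i differed by 2.55 ± 0.13, Polr2e by 2.34 ± 0.13, and the RNA polymerase III subunit Polr3b by 1.56 ± 0.09. Splicing factors were lower for 53 of 60 genes and higher for 0, with a median of 1.48. Sf3b5 of the U2 particle had 5.99, 5.87 and 5.73 in α-amanitin embryos, against 8.58, 8.41 and 8.50 in untreated embryos (2.63 ± 0.11, adjusted p = 1.01e-07), the exon junction proteins Magoh and Eif4a3 differed by 2.57 ± 0.12 and 3.40 ± 0.17 (2.62 as the median of the 3 probe sets of Eif4a3), the SR protein Srsf2 by 1.96 ± 0.10, and the Sm protein Snrpd2 by 4.18 ± 0.27 (3 of 4 probe sets, with a median of 3.56 over them). Nucleoporins and transport receptors were mostly lower, with 29 of 47 lower, 8 higher and a median of 0.80 (0.35 with quantile normalization). The share of members that were higher was near the 14.3 percent of all genes. Kpna1, an importin that carries proteins into the nucleus, had 4.57, 4.70 and 4.78 in α-amanitin embryos, against 8.06, 7.94 and 7.83 in untreated embryos (3.26 ± 0.18, adjusted p = 2.51e-07). The mRNA export receptor Nxf1 differed by 2.71 ± 0.16, and the nucleoporins Ranbp2 and Tpr by 2.07 ± 0.14 and 1.60 ± 0.10.

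RNAs for protein synthesis were also mostly lower, with smaller medians than the 2.95 of cytosolic ribosomal proteins. Translation factors were lower for 37 of 48 genes with a median of 1.25, and 1 was higher, Eif1, a factor of start codon choice (-0.34 ± 0.10). The Eif1 call was lost after cyclic loess normalization (adjusted p = 0.904) and without α-amanitin replicate 1 (0.0712) or untreated replicate 1 (0.0651). Eif3a, the scaffold of the initiation factor that holds the small subunit, had 4.95, 4.79 and 5.02 in α-amanitin embryos, against 8.08, 7.83 and 7.94 in untreated embryos (3.03 ± 0.14, adjusted p = 1.14e-07), and its partners Eif3g and Eif3m differed by 2.59 ± 0.12 and 3.24 ± 0.19. Pabpc1, the main cytoplasmic poly(A)-binding protein, had 4.93, 5.12 and 5.17 in α-amanitin embryos, against 8.63, 8.41 and 8.68 in untreated embryos (3.50 ± 0.17, adjusted p = 1.57e-07). Of 20 aminoacyl-tRNA synthetase genes and their cofactors, 13 were lower and 1 was higher, with a median of 0.78 (0.45 after quantile normalization). Rars, which charges the arginine tRNA, differed by 3.01 ± 0.24, Hars by 2.21 ± 0.13, Mars1 by 1.37 ± 0.11 and the scaffold Aimp2 by 2.83 ± 0.19. The member that was higher was Farsb, a subunit of the phenylalanine enzyme, at 7.24 ± 0.17 in α-amanitin embryos and 6.46 ± 0.06 in untreated embryos (SD, n = 3 each), a difference of -0.78 ± 0.11, adjusted p = 0.000263.

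Chaperones were lower for 26 of 36 genes, with a median of 1.52. Subunits of the chaperonin ring were among the lower genes. Cct6a had 4.19, 4.27 and 4.09 in α-amanitin embryos, against 6.85, 6.75 and 6.69 in untreated embryos (2.58 ± 0.11, adjusted p = 1.12e-07), Cct8 differed by 1.84 ± 0.09, and Tcp1 by 2.84 ± 0.14 with 1 of its 3 probe sets called lower and a median over them of 0.13. Fkbp4, a co-chaperone of Hsp90, differed by 2.70 ± 0.12. Hsf1, the heat shock factor, was the 1 member that was higher, at 7.70 ± 0.10 in α-amanitin embryos and 6.82 ± 0.07 in untreated embryos (SD, n = 3 each), a difference of -0.88 ± 0.11, adjusted p = 8.12e-05. Proteasome subunits were lower for 36 of 44 genes, with a median of 1.46. Psmb5, a catalytic subunit of the core, had 5.64, 5.85 and 5.99 in α-amanitin embryos, against 10.45, 10.09 and 10.36 in untreated embryos (4.47 ± 0.23, adjusted p = 1.82e-07). The core subunits Psmb4 and Psmb1 differed by 3.36 ± 0.14 and 2.69 ± 0.12, and Psmd7 of the lid by 3.07 ± 0.19. The 1 member that was higher was Psme3, an activator cap of the nuclear proteasome, with 8.64, 8.49 and 8.45 in α-amanitin embryos, against 7.55, 7.43 and 7.46 in untreated embryos (-1.04 ± 0.10, adjusted p = 8.99e-06).

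**Figure D2:**
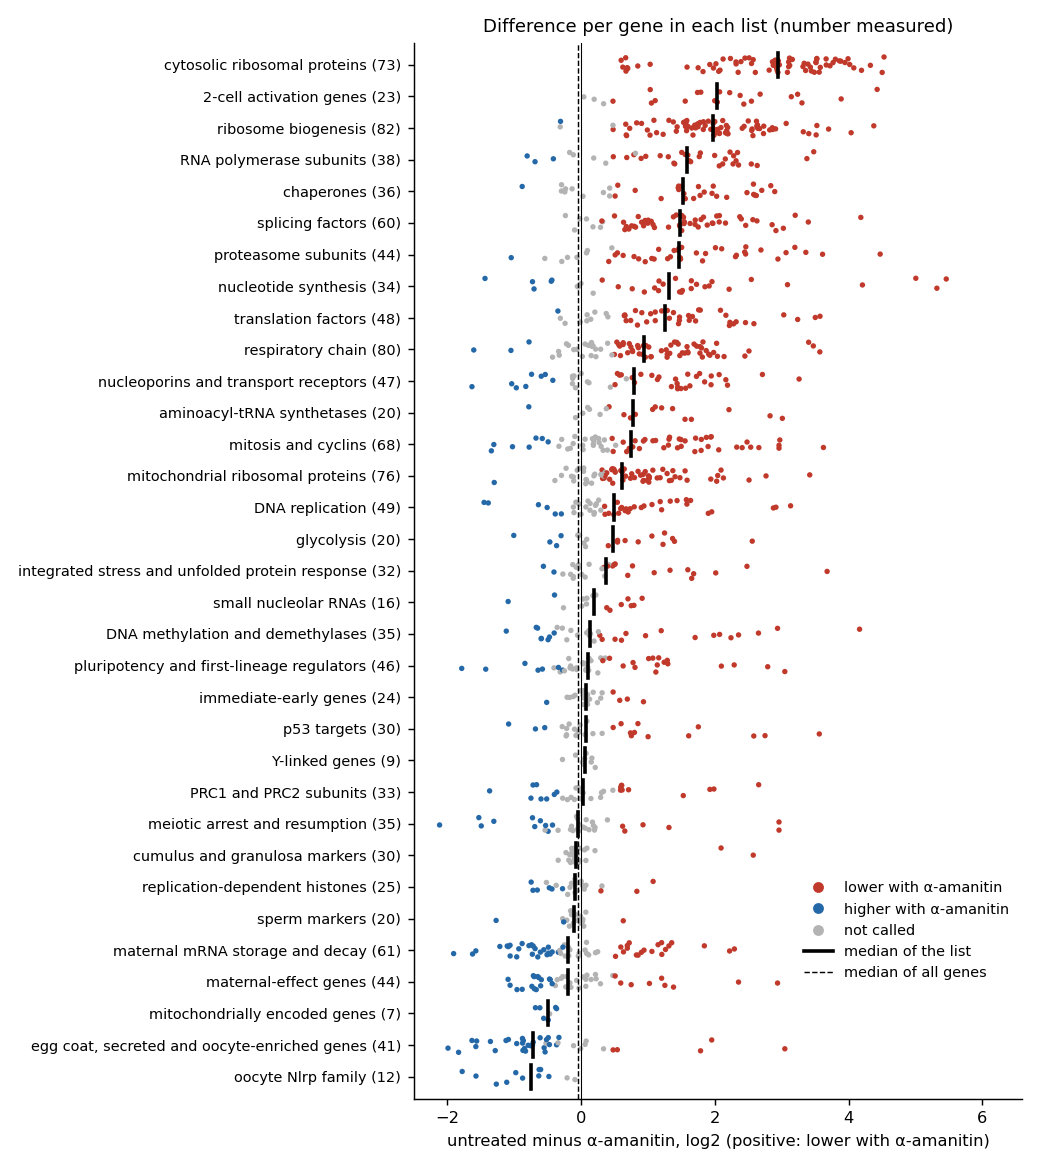
Each point is 1 gene, placed by its untreated minus α-amanitin difference on a log2 scale, for 33 gene lists with the number of measured genes, and black bars are medians. Cytosolic ribosomal proteins lie highest with a median of 2.95 and all 73 genes lower with α-amanitin, while the oocyte Nlrp family lies lowest with a median of -0.75.

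Quantile normalization raised the number of members higher with α-amanitin to 10 for mitochondrial ribosomal proteins and for the respiratory chain, 12 for mitosis and cyclins, 13 for nucleoporins and for DNA methylation genes, 16 for meiotic regulators and 25 for maternal-effect genes. It was 6 for chaperones, 4 for proteasome subunits, 3 each for translation factors and aminoacyl-tRNA synthetases, 2 each for splicing factors and ribosome biogenesis, 10 for DNA replication, 11 for pluripotency regulators and 5 for p53 targets. The same scaling lowered medians to 1.77 for 2-cell activation genes, 1.63 for ribosome biogenesis, 1.23 for RNA polymerase subunits and 1.13 for chaperones. Medians became 1.10 for splicing factors, 1.03 for proteasome subunits, 0.92 for nucleotide synthesis, 0.86 for translation factors and -1.09 for the Nlrp family. The lists and their members were chosen with earlier results known, so counts and medians describe them.

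Metabolic genes are given by pathway, and the pathways were not tested against each other. Nucleotide synthesis had 25 of 34 genes lower (73.5 percent, against 19.4 percent of all genes) and a median of 1.32. The 5 that were higher made up 14.7 percent, near the 14.3 percent of all genes. Beside Prps1, Impdh2 and Ppat, Nme2, a nucleoside diphosphate kinase, had 6.69, 6.74 and 6.72 in α-amanitin embryos, against 11.16, 10.78 and 10.84 in untreated embryos (4.21 ± 0.21, adjusted p = 1.57e-07), with a median of 3.02 over its 2 probe sets, and Adsl of the purine pathway differed by 2.55 ± 0.13. Mthfd2, a mitochondrial enzyme of one-carbon metabolism, went the other way with 9.04, 8.85 and 9.01 in α-amanitin embryos, against 7.53, 7.73 and 7.35 in untreated embryos (-1.43 ± 0.13, adjusted p = 8.57e-06). Nuclear-encoded respiratory chain genes were lower for 58 of 80 (72.5 percent) and higher for 3 (3.8 percent), with a median of 0.95 (0.59 after quantile normalization). Ndufa2 of complex I had 5.98, 5.96 and 5.89 in α-amanitin embryos, against 9.74, 9.43 and 9.37 in untreated embryos (3.57 ± 0.16, adjusted p = 1.12e-07), Cox7c and Cox7a1 of cytochrome oxidase differed by 3.40 ± 0.16 and 1.80 ± 0.08, and Atp5md of ATP synthase by 3.47 ± 0.17. Atp5g2, which encodes subunit c of ATP synthase, was higher (-1.60 ± 0.20), on 2 of its 3 probe sets, with a median of -0.69 over them. Glycolysis had 11 of 20 genes lower and 4 higher with a median of 0.48, which was 0.11 after quantile normalization. The count of higher genes was 2 without α-amanitin replicate 1 or untreated replicate 2. Pfkfb3, which makes an activator of phosphofructokinase, had 4.71, 4.86 and 4.64 in α-amanitin embryos, against 7.43, 7.22 and 7.25 in untreated embryos (2.56 ± 0.13, adjusted p = 1.65e-07), and Ldha, Pgk1 and Pgam1 differed by 1.40 ± 0.11, 1.37 ± 0.14 and 1.06 ± 0.11.

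Mitochondrial ribosomal proteins, encoded in the nucleus, were lower for 52 of 76 genes and higher for 1, with a median of 0.62 (0.38 after quantile normalization). Mrpl34 differed by 2.77 ± 0.20, Mrpl20 by 2.13 ± 0.15, Mrps12 by 2.05 ± 0.12 and Mrps28 by 1.56 ± 0.10. Mrpl48 was higher with α-amanitin, at 8.56 ± 0.15 in α-amanitin embryos and 7.26 ± 0.21 in untreated embryos (SD, n = 3 each), a difference of -1.30 ± 0.21, adjusted p = 0.000533. RNAs transcribed inside the mitochondrion were mostly higher. Of 7 measured genes 6 were higher (85.7 percent, against 14.3 percent of all genes) and 1 did not pass. The median was -0.49, and -0.34 without α-amanitin replicate 1, which had the highest values of ND1 and CYTB. ND1 of complex I had 10.66, 10.20 and 10.21 in α-amanitin embryos, against 9.92, 9.64 and 9.67 in untreated embryos (-0.61 ± 0.13, adjusted p = 0.00378). CYTB had 11.51, 11.00 and 11.15 in α-amanitin embryos, against 10.87, 10.65 and 10.66 in untreated embryos (-0.49 ± 0.13, adjusted p = 0.0153), and COX2 and ND3 differed by -0.56 ± 0.14 and -0.68 ± 0.17. The groups did not overlap for 6 of the 7, against 47.6 percent of all genes. After cyclic loess normalization the median was -0.16 and 1 gene was called, and without untreated replicate 2 or 3 the count was 3, with CYTB at an adjusted p of 0.0578 without the one and 0.0558 without the other.

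Cell cycle genes were mostly lower, with Plk4 among the exceptions. Of 68 genes of mitosis and the cyclins, 39 were lower (57.4 percent, against 19.4 percent of all genes) and 7 higher (10.3 percent, against 14.3 percent). Their median was 0.75 (0.43 after quantile normalization). Ccne1, a cyclin of entry into S phase, had 5.38, 5.14 and 5.33 in α-amanitin embryos, against 8.87, 8.83 and 9.02 in untreated embryos (3.63 ± 0.16, adjusted p = 1.14e-07). Cdk1, the kinase of entry into mitosis, had 4.69, 4.85 and 4.73 in α-amanitin embryos, against 7.74, 7.57 and 7.84 in untreated embryos (2.96 ± 0.18, adjusted p = 4.47e-07). Cdc20, an activator of the anaphase-promoting complex, differed by 2.66 ± 0.15, the kinesin Kif20a by 2.41 ± 0.14, the spindle kinase Aurka by 2.96 ± 0.19 and the mitotic cyclin Ccnb1 by 1.32 ± 0.12. Plk4, the kinase of centriole duplication, had 9.19, 9.04 and 8.74 in α-amanitin embryos, against 7.75, 7.72 and 7.49 in untreated embryos (-1.34 ± 0.13, adjusted p = 1.62e-05) and so was higher. DNA replication genes were lower for 28 of 49 (57.1 percent) and higher for 6 (12.2 percent, near the 14.3 percent of all genes). Their median was 0.49, which quantile normalization lowered to 0.24, and the count of higher genes was 3 without untreated replicate 3. Cdc45, of the replicative helicase, had 4.78, 4.90 and 5.01 in α-amanitin embryos, against 7.87, 7.80 and 7.66 in untreated embryos (2.88 ± 0.12, adjusted p = 1.01e-07), and Gins3 of the same machine differed by 3.13 ± 0.18, the single-strand binding protein Rpa2 by 2.92 ± 0.16 and Orc1, which marks origins, by 1.58 ± 0.11.

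Replication-dependent histone genes, whose RNA ends in a stem-loop rather than a poly(A) tail, had 3 of 25 lower, 6 higher and 16 not called, with a median of -0.09. H2ac1, a histone H2A gene known from testis and egg, had 10.03, 9.81 and 9.93 in α-amanitin embryos, against 9.10, 9.20 and 9.25 in untreated embryos (-0.74 ± 0.10, adjusted p = 0.00021), and H1f1 differed by -0.65 ± 0.09. H1f5 and H2bc22 were lower, by 1.08 ± 0.14 and 0.84 ± 0.14. The count of higher histones was 3 without untreated replicate 3, α-amanitin replicate 1 or α-amanitin replicate 3. Small nucleolar RNAs had 7 of 16 lower (43.8 percent) and 2 higher (12.5 percent, near the 14.3 percent of all genes). Of the 16, 11 were dim on all arrays. Snora65 had 4.56, 4.76 and 4.57 in α-amanitin embryos, against 5.59, 5.74 and 5.31 in untreated embryos (0.92 ± 0.12, adjusted p = 0.000155), Snora69, Snord33 and Snora70 differed by 0.79 ± 0.14, 0.70 ± 0.13 and 0.60 ± 0.12. The Snora69 call was lost after quantile normalization (0.39, adjusted p = 0.0698). Snora74a was higher (-1.09 ± 0.23). Most small nucleolar RNAs are cut from introns of host genes, and the probes may read the host's unspliced RNA.

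Of 46 regulators of pluripotency and the first lineages, 17 were lower (37.0 percent, against 19.4 percent of all genes) and 22 were not called. The 7 that were higher made up 15.2 percent, near the 14.3 percent of all genes, and the median was 0.11. Dppa4, a chromatin protein of early embryos and stem cells, had 4.22, 4.46 and 4.43 in α-amanitin embryos, against 7.29, 7.06 and 7.13 in untreated embryos (2.79 ± 0.17, adjusted p = 4.47e-07). The small RNA-binding protein Dppa5a had 8.85, 8.10 and 7.89 in α-amanitin embryos, against 11.46, 11.02 and 11.52 in untreated embryos (3.05 ± 0.28, adjusted p = 7.63e-06), and Nr5a2, an orphan nuclear receptor, differed by 2.10 ± 0.18. Tbx3 and Wwtr1, a T-box factor and the Hippo cofactor TAZ, differed by 1.24 ± 0.11 and 1.12 ± 0.09. Pou5f1, which encodes Oct4, was higher with α-amanitin. Pou5f1 had 9.57, 9.28 and 9.31 in α-amanitin embryos, against 8.17, 7.81 and 7.92 in untreated embryos (-1.42 ± 0.13, adjusted p = 6.39e-06). Tcl1, a cofactor of Akt known from eggs, was higher as well, with 11.12, 10.91 and 10.91 in α-amanitin embryos, against 9.22, 9.49 and 8.89 in untreated embryos (-1.78 ± 0.14, adjusted p = 2.18e-06). Nanog was dim on all 6 arrays, with 4.56, 4.66 and 4.57 in α-amanitin embryos, against 4.68, 4.67 and 4.68 in untreated embryos, and did not pass the test (0.08 ± 0.09, adjusted p = 0.588).

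Chromatin regulators went both ways. Polycomb complexes 1 and 2 had 10 of 33 lower (30.3 percent, against 19.4 percent of all genes) and 8 higher (24.2 percent, against 14.3 percent). Their median was 0.03, which took the other sign after quantile normalization (-0.12). Pcgf5, of a variant PRC1, had 4.90, 4.88 and 4.69 in α-amanitin embryos, against 7.71, 7.41 and 7.33 in untreated embryos (2.66 ± 0.16, adjusted p = 3.61e-07), and Mtf2, L3mbtl2 and Rbbp4 differed by 1.99 ± 0.17, 1.93 ± 0.19 and 1.53 ± 0.12. Rnf2 was higher by a small margin (-0.36 ± 0.11, adjusted p = 0.0369). Rnf2 did not pass under 8 alternatives, with adjusted p of 0.0611 to 0.134 without α-amanitin replicate 1 or 3 or untreated replicate 2 or 3, and Ring1 differed by -0.02 ± 0.11. DNA methylation and demethylase genes had 15 of 35 lower (42.9 percent), 8 higher (22.9 percent) and a median of 0.14. Kdm5b, a demethylase of histone H3 lysine 4, had 4.37, 4.71 and 4.31 in α-amanitin embryos, against 8.67, 8.55 and 8.66 in untreated embryos (4.17 ± 0.19, adjusted p = 1.24e-07). Kdm3a differed by 2.24 ± 0.10, and Tet1, an enzyme that oxidizes methylcytosine, by 2.65 ± 0.11 (1.67 as the median of its 3 probe sets). Trim28, the corepressor of KRAB zinc finger proteins, had 5.36, 5.59 and 5.59 in α-amanitin embryos, against 8.46, 8.31 and 8.59 in untreated embryos (2.94 ± 0.15, adjusted p = 1.89e-07). Dnmt3l, the cofactor of de novo methylation in the growing oocyte, was higher, with 7.77, 7.48 and 7.60 in α-amanitin embryos, against 6.51, 6.51 and 6.49 in untreated embryos (-1.12 ± 0.10, adjusted p = 5.66e-06).

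RNAs of stress pathway genes were partly lower with α-amanitin, and pathway activity was not measured. Of 30 p53 target genes 12 were lower (40.0 percent, against 19.4 percent of all genes) and 3 higher (10.0 percent, against 14.3 percent). Another 15 were not called, and 15 were dim on all arrays. The median was 0.07, against -0.04 over all genes. Sesn2, a stress-induced inhibitor of mTORC1, had 4.87, 5.00 and 4.94 in α-amanitin embryos, against 8.53, 8.36 and 8.61 in untreated embryos (3.56 ± 0.16, adjusted p = 1.14e-07), Gadd45a and Gadd45b differed by 2.58 ± 0.11 and 2.75 ± 0.25, and Tigar by 1.76 ± 0.15. The integrated stress and unfolded protein response had 15 of 32 lower (46.9 percent), 2 higher (6.2 percent) and a median of 0.38. After quantile normalization it had 9 lower, 9 higher and a median of 0.07. The count of higher members was 0 without α-amanitin replicate 1 or 3 and 1 without untreated replicate 1 or 2. Dnajb9, a chaperone of the endoplasmic reticulum, had 4.31, 4.70 and 4.31 in α-amanitin embryos, against 8.0, 8.09 and 8.27 in untreated embryos (3.68 ± 0.23, adjusted p = 5.51e-07), Hspa5, its Hsp70 partner, differed by 1.69 ± 0.11, Ppp1r15b, which restores translation, by 2.48 ± 0.14, and the kinase Eif2ak3 by 1.66 ± 0.10. As medians over their 2 probe sets each, Ppp1r15b differed by 1.44 and Eif2ak3 by 0.99. Atf4, the transcription factor of the pathway, differed by 0.77 ± 0.16, and by 0.33 (adjusted p = 0.0599) after quantile normalization. Immediate-early genes, which answer stimulation within minutes in other cells, were dim on all arrays for 21 of 24. Zfp36 (0.69 ± 0.09), Dusp6 (0.58 ± 0.09) and Btg1 (0.94 ± 0.17) were lower and Egr1 (-0.51 ± 0.09) was higher.

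RNAs that were higher with α-amanitin changed less than those that were lower. Psenen, a subunit of γ-secretase, had 10.91, 10.62 and 10.53 in α-amanitin embryos, against 7.95, 8.08 and 7.88 in untreated embryos, which is 6.57-fold higher (-2.72 ± 0.14, adjusted p = 1.61e-07). Pla2g4c, a phospholipase, had 10.74, 10.46 and 10.65 in α-amanitin embryos, against 8.05, 8.28 and 8.07 in untreated embryos (-2.48 ± 0.11, adjusted p = 1.14e-07). Wee2, the egg kinase that holds Cdk1 inactive, had 10.31, 9.94 and 9.98 in α-amanitin embryos, against 8.05, 8.17 and 7.68 in untreated embryos (-2.11 ± 0.16, adjusted p = 1.65e-06). Bmp15, a growth factor that the oocyte sends to the follicle, had 10.54, 10.42 and 10.39 in α-amanitin embryos, against 8.54, 8.67 and 8.19 in untreated embryos (-1.99 ± 0.12, adjusted p = 5.11e-07). The untreated arrays of these genes stayed well above the array median, so their RNA was read in both groups.

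The other genes among the 20 with the largest rises spanned vesicle traffic, metabolism and transcription. Stard3nl, a protein of late endosomes, had 7.85, 7.69 and 7.71 in α-amanitin embryos, against 5.34, 5.58 and 5.06 in untreated embryos (-2.42 ± 0.13, adjusted p = 2.6e-07). Differences were -2.07 ± 0.13 for the tethering factor Trappc2, -2.07 ± 0.16 for Sytl4, an effector of Rab27, -2.03 ± 0.12 for the Golgi GTPase Arf3, -2.02 ± 0.16 for Golph3l and -1.98 ± 0.13 for Tram1 of the translocation channel. G6pdx, the first enzyme of the pentose phosphate pathway, had 10.07, 9.93 and 9.89 in α-amanitin embryos, against 7.62, 8.11 and 7.79 in untreated embryos (-2.12 ± 0.14, adjusted p = 6.13e-07). Cdo1, which oxidizes cysteine, differed by -1.99 ± 0.16, and the galactosyltransferase B4galt4 by -2.04 ± 0.24. Taf9b, a TFIID-related factor, differed by -1.97 ± 0.12, Rgs17, a regulator of G proteins, by -1.91 ± 0.18, Cntnap1 by -1.93 ± 0.14, Tmem243 by -2.0 ± 0.16 and Pramel27 by -1.94 ± 0.25. Olfr976, annotated as an olfactory receptor, had 7.66, 7.46 and 7.28 in α-amanitin embryos, against 5.41, 5.22 and 4.95 in untreated embryos. Iqca differed by -2.07 ± 0.13 on its brightest probe set, but 1 of its 4 probe sets was called higher and their median difference was -0.05.

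Lists of egg genes held more members that were higher than lower. Of 41 genes of the egg coat, egg secretion and oocyte expression, 29 were higher (70.7 percent, against 14.3 percent of all genes), 5 were lower and 7 did not pass, with a median of -0.71, which was -0.43 after cyclic loess and -0.91 after quantile normalization. Obox5, an oocyte homeobox gene, had 9.42, 9.39 and 9.18 in α-amanitin embryos, against 7.49, 7.48 and 7.54 in untreated embryos (-1.83 ± 0.14, adjusted p = 1.68e-06). Bcl2l10, an oocyte member of the Bcl2 family, differed by -1.63 ± 0.12, Dazl, which drives translation of stored RNAs, by -1.57 ± 0.15, and Zp2 of the egg coat by -1.12 ± 0.15. Gdf9, the partner of Bmp15, had 9.09, 9.19 and 9.28 in α-amanitin embryos, against 8.57, 8.67 and 8.50 in untreated embryos (-0.61 ± 0.12, adjusted p = 0.00235), and did not pass after cyclic loess normalization (-0.32, adjusted p = 0.0623). Zp3, which encodes another coat protein, was lower (0.48 ± 0.14, adjusted p = 0.0269), a call lost after quantile normalization (adjusted p = 0.584) and without α-amanitin replicate 2 or 3 or untreated replicate 1 or 3 (0.0545 to 0.114). Tex19.1, a germline gene, was lower too, with 6.10, 5.90 and 5.93 in α-amanitin embryos, against 7.97, 7.87 and 7.96 in untreated embryos (1.96 ± 0.14, adjusted p = 1.08e-06).

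The oocyte Nlrp family, cytoplasmic proteins of the egg and early embryo, had 10 of 12 genes higher and 0 lower, with a median of -0.75. Nlrp4e had 8.48, 8.52 and 8.29 in α-amanitin embryos, against 6.90, 6.66 and 6.42 in untreated embryos (-1.78 ± 0.13, adjusted p = 1.38e-06). Nlrp9c, Nlrp9a and Nlrp4a differed by -1.57 ± 0.14, -1.27 ± 0.11 and -1.11 ± 0.16, and Nlrp5, a part of the subcortical maternal complex, by -0.63 ± 0.14. The median level of the 12 genes was 7.10 in α-amanitin embryos and 6.12 in untreated embryos, so most stayed above the array medians. Maternal-effect genes, whose loss in the egg stops the embryo, had 16 of 44 higher (36.4 percent, against 14.3 percent of all genes) and 19 not called. The 9 that were lower made up 20.5 percent, near the 19.4 percent of all genes. The median was -0.19 (-0.49 with quantile normalization, -0.10 with cyclic loess). Zar1, which binds stored RNAs, had 7.29, 7.28 and 7.45 in α-amanitin embryos, against 7.01, 6.85 and 6.87 in untreated embryos (-0.43 ± 0.12, adjusted p = 0.0182), with an adjusted p of 0.0606 to 0.0726 without α-amanitin replicate 3 or untreated replicate 2 or 3, and 0.136 after cyclic loess normalization. Dppa3, which protects the maternal genome from demethylation, was lower, with 7.90, 7.97 and 7.59 in α-amanitin embryos, against 10.33, 10.14 and 10.05 in untreated embryos (2.36 ± 0.13, adjusted p = 2e-07), and the repair gene Pms2 differed by 1.38 ± 0.09.

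Regulators of meiotic arrest and resumption had 10 of 35 higher (28.6 percent, against 14.3 percent of all genes). The 6 that were lower made up 17.1 percent, against 19.4 percent of all genes. The median was -0.05 (-0.21 after quantile normalization). Cdc25b, the phosphatase that opposes Wee2, was higher as Wee2 was, with 6.65, 6.36 and 6.45 in α-amanitin embryos, against 5.22, 5.24 and 5.09 in untreated embryos (-1.30 ± 0.11, adjusted p = 4e-06). Mapk3, a kinase of the metaphase arrest, and Arpp19, an inhibitor of the phosphatase PP2A, differed by -1.53 ± 0.22 and -1.49 ± 0.13. Cdk1, Aurka and Ccnb1 of the same list were lower, as given above. Mos, the kinase upstream of Mapk3, was dim on all arrays, with 4.81, 4.72 and 4.78 in α-amanitin embryos, against 4.78, 4.64 and 4.78 in untreated embryos (-0.04 ± 0.11, adjusted p = 0.873).

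**Figure D3:**
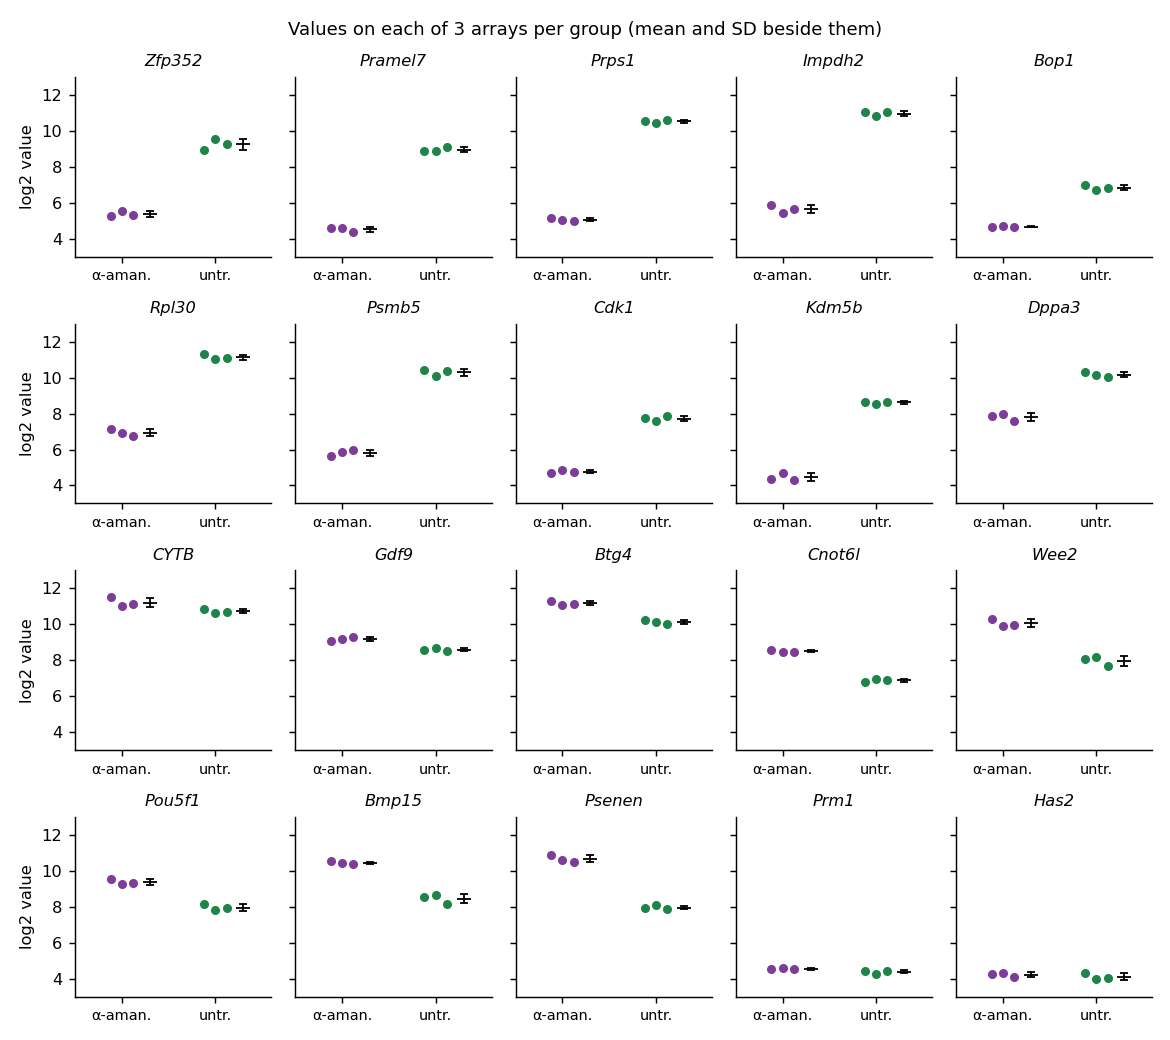
Log2 values of 20 genes on each array, with α-amanitin at the left of each panel and untreated at the right, 3 arrays each, and the mean with its SD beside the points. Zfp352, Prps1, Cdk1 and Dppa3 lie lower with α-amanitin on every array, Wee2, Pou5f1, Bmp15 and Psenen lie higher, and the sperm gene Prm1 and the cumulus gene Has2 stay near 4 to 5 in both.

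Factors that store and degrade maternal RNA moved in both directions. Of 61, 26 were higher (42.6 percent, against 14.3 percent of all genes), 20 lower (32.8 percent, against 19.4 percent) and 15 not called. The median was -0.19 (-0.36 after quantile normalization). Eif4e1b, an oocyte cap-binding protein, had 11.78, 11.44 and 11.63 in α-amanitin embryos, against 9.75, 9.93 and 9.46 in untreated embryos (-1.90 ± 0.13, adjusted p = 7.03e-07). Btg4, the adapter that brings deadenylase to egg RNAs, had 11.30, 11.10 and 11.14 in α-amanitin embryos, against 10.25, 10.11 and 10.01 in untreated embryos (-1.06 ± 0.11, adjusted p = 1.62e-05). Of the deadenylase itself, the catalytic subunit Cnot6l had 8.58, 8.47 and 8.46 in α-amanitin embryos, against 6.79, 6.98 and 6.89 in untreated embryos (-1.62 ± 0.13, adjusted p = 3.19e-06) and the catalytic subunit Cnot7 differed by -1.10 ± 0.10, while the scaffold Cnot1 was lower (1.26 ± 0.15). Dcp2, which removes the cap, was higher (-1.09 ± 0.12). 2 subunits of the exosome, which degrades RNA from its tail end, were named by the rule and were lower. Dis3, one of its nucleases, had 4.77, 4.87 and 4.61 in α-amanitin embryos, against 6.84, 6.82 and 7.25 in untreated embryos (2.22 ± 0.15, adjusted p = 8.9e-07), and the ring subunit Exosc2 differed by 1.36 ± 0.09.

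Some related genes moved in opposite directions. These 9 pairs were picked with their values in view, so their directions are a description, and the same goes for all members named outside the rule, 45 genes in all. Pabpc1l, the poly(A)-binding protein of the egg, was higher (-0.96 ± 0.09), and Pabpc1 was lower (3.50 ± 0.17). Eif4e1b stood against Eif4e, the general cap-binding factor (0.66 ± 0.11), which was lower on 2 of its 3 probe sets. Kpna7, the importin of the egg, had 7.98, 7.80 and 7.58 in α-amanitin embryos, against 6.08, 6.47 and 5.91 in untreated embryos, whereas Kpna2 had 7.27, 7.14 and 6.97 in α-amanitin embryos, against 9.41, 9.26 and 9.21 in untreated embryos. Their differences were -1.63 ± 0.26 (adjusted p = 0.000555) and 2.17 ± 0.16 (adjusted p = 1.75e-06). Tet3, the enzyme that oxidizes the paternal genome of the zygote, was higher with 7.31, 7.05 and 6.88 in α-amanitin embryos, against 6.26, 6.39 and 6.59 in untreated embryos (-0.67 ± 0.16, adjusted p = 0.00968), while Tet1 was lower with 4.26, 4.10 and 4.19 in α-amanitin embryos, against 6.86, 6.78 and 6.88 in untreated embryos (2.65 ± 0.11, adjusted p = 1.01e-07).

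In the other 5 pairs the gap between the members was smaller than in these 4. Zar1 was higher (-0.43) and Zar1l lower (1.21). Among enzymes of lactate and glucose handling, Ldhb was higher (-0.36) on 1 of its 2 probe sets (adjusted p = 0.752 after cyclic loess normalization and 0.0657 to 0.0844 without α-amanitin replicate 1 or 3 or untreated replicate 2 or 3) and Ldha lower (1.40), and the transporter Slc2a1 was higher (-1.0) and Slc2a3 lower (0.66), though dim on all 6 arrays. Of the lysine-specific demethylases Kdm1b, needed in the oocyte, was higher (-0.47) and Kdm1a lower (1.20). Among RNA-binding proteins, Ythdf3, a reader of methylated adenine, was higher (-0.74) and Ythdf2 lower (1.21). All 18 genes of these pairs passed the test and had groups that did not overlap.

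**Figure D4:**
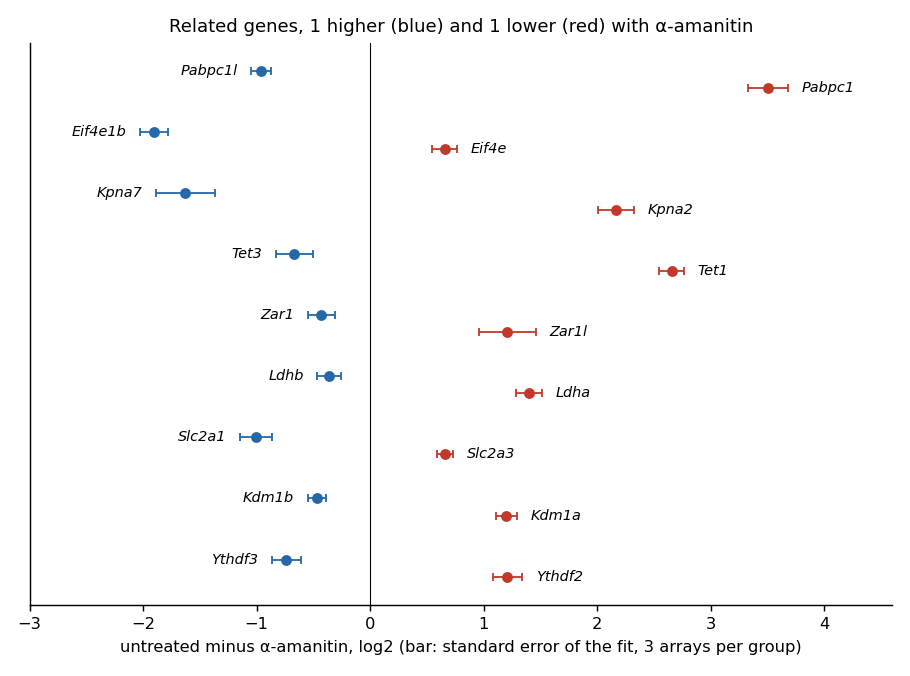
Untreated minus α-amanitin difference on a log2 scale of 9 pairs of related genes, with the standard error of the fit over 3 arrays per group. In each pair the blue gene was higher and the red gene lower with α-amanitin, for example Kpna7 at -1.63 with Kpna2 at 2.17 and Ldhb at -0.36 with Ldha at 1.40.

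Markers of cells that could travel with the embryos were mostly dim. Of 30 cumulus and granulosa markers 27 were dim on all 6 arrays, Has2 among them with 4.27, 4.35 and 4.10 in α-amanitin embryos, against 4.34, 4.01 and 4.04 in untreated embryos. The summed linear array values of the 30 ranged from 667 to 718 on α-amanitin arrays and from 800 to 875 on untreated arrays, while the sums of the 28 members that did not pass were 621 to 674 with α-amanitin and 594 to 642 in untreated embryos. The 2 that changed were the gap junction gene Gja1, also an oocyte and embryo gene, with 4.48, 4.34 and 4.51 in α-amanitin embryos, against 7.24, 6.92 and 6.90 in untreated embryos (2.58 ± 0.13, adjusted p = 1.74e-07), and Amhr2, the receptor of anti-Müllerian hormone, with 4.52, 4.58 and 4.50 in α-amanitin embryos, against 6.87, 6.59 and 6.43 in untreated embryos (2.10 ± 0.12, adjusted p = 3.21e-07). Of 20 sperm markers 18 were dim on all arrays, and Prm1, a protamine, had 4.55, 4.61 and 4.52 in α-amanitin embryos, against 4.45, 4.30 and 4.41 in untreated embryos. Their sum ranged from 517 to 526 on α-amanitin arrays and from 430 to 457 on untreated arrays. Odf2, also a centrosome gene, was higher (-1.27 ± 0.11, adjusted p = 4.11e-06), Ldhc was lower (0.63 ± 0.10, adjusted p = 0.000629), and Smcp was higher (-0.26 ± 0.08, adjusted p = 0.0424), a call lost under 10 alternatives, among them the fits without any 1 α-amanitin array or untreated replicate 1 or 2 (adjusted p 0.0646 to 0.16). The sums of the 17 that did not pass were 346 to 362 with α-amanitin and 328 to 348 in untreated embryos. The part of such cells in the results was not tested beyond these values.

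Y-linked genes and Xist, which silences an X chromosome, were mostly dim in both groups. None of 9 Y-linked genes passed the limma test at an adjusted p of 0.05, 1 had an unadjusted p below 0.05, and 8 of them were dim on all arrays. Eif2s3y, for one, had 3.91, 4.12 and 4.15 in α-amanitin embryos, against 4.29, 4.27 and 4.26 in untreated embryos (0.21 ± 0.10, adjusted p = 0.163), and the values of Ddx3y were 4.13, 4.24 and 4.18 in α-amanitin embryos, against 4.13, 4.06 and 4.12 in untreated embryos. The differences of the others were 0.02 for Kdm5d, -0.28 for Sry, 0.06 for Uba1y, 0.04 for Usp9y, 0.15 for Uty, 0.08 for Zfy1 and 0.16 for Zfy2. Xist had 4.16, 4.23 and 4.24 in α-amanitin embryos, against 4.35, 4.35 and 4.45 in untreated embryos (0.17 ± 0.10, adjusted p = 0.267) and was dim on all arrays. Olfactory receptors, which the early embryo is not known to use, had 2 of 1049 lower, 23 higher and 1036 dim on all arrays, with a median of -0.09. Without untreated replicate 1 the count of higher receptors was 8.

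The mutant embryos of the series are labelled maternal Ring1-Rnf2- and make another pair of groups, with 2 α-amanitin and 3 untreated arrays. There 561 genes were lower and 235 higher with α-amanitin, and 3.56 percent of probe sets changed. These counts rest on which arrays enter. Values above 6 made up 10.95 percent of the array of mutant α-amanitin replicate 1 and 14.16 percent of that of replicate 2, against 11.9 to 12.9 percent on the 3 mutant untreated arrays. In control embryos they were 11.24 to 12.62 percent with α-amanitin and 15.13 to 16.09 percent in untreated embryos, so the second mutant α-amanitin array did not have the lower share seen there. Without mutant α-amanitin replicate 1 there were 354 genes lower and 1053 higher in mutants, and without replicate 2 there were 475 lower and 25 higher, each time with the lone array assumed to vary like the other groups. Without mutant untreated replicate 1, 2 or 3, 327 to 572 genes were lower and 59 to 111 higher. The interaction term of the same fit, the control difference minus the mutant difference, was called for 3830 of 21437 genes (17.9 percent), and for 3756 without mutant α-amanitin replicate 1 and 3514 without replicate 2. Of the genes lower with α-amanitin in control embryos, 2825 had a significantly larger difference there than in mutants and 5 a smaller one. Of the genes higher with α-amanitin in control embryos, 861 had a more negative difference there and 0 a less negative one. These genes were picked by their control difference, which is part of the interaction. The selection favours such a split, so both splits are a description.

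By list, the gap between genotypes was unequal. Median differences were 2.95 in control and 0.81 in mutant embryos for cytosolic ribosomal proteins, with the interaction called for 66 of 73 genes, and 1.98 and 0.27 for ribosome biogenesis, called for 78 of 82. For splicing factors they were 1.48 and 0.04, and for proteasome subunits 1.46 and 0.15. The 2-cell activation genes had medians of 2.04 in control and 1.70 in mutant embryos, with the interaction called for 7 of 23. Of these 7, the difference was larger in mutant embryos for Zfp352 (interaction -1.17 ± 0.25, adjusted p = 0.00835) and the clone-named Gm4340 (-2.27 ± 0.28, adjusted p = 0.000389). The oocyte Nlrp family had medians of -0.75 and -0.49, with the interaction called for 3 of 12. Without mutant α-amanitin replicate 1 the mutant medians were 0.71 for cytosolic ribosomal proteins, 0.10 for ribosome biogenesis, -0.14 for splicing factors, -0.20 for proteasome subunits, 1.59 for the 2-cell activation genes and -0.65 for the Nlrp family. Without replicate 2 they were 0.99, 0.43, 0.23, 0.22, 1.62 and -0.35 in the same order, so the medians of splicing factors and proteasome subunits in mutants have no settled sign.

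**Figure D5:**
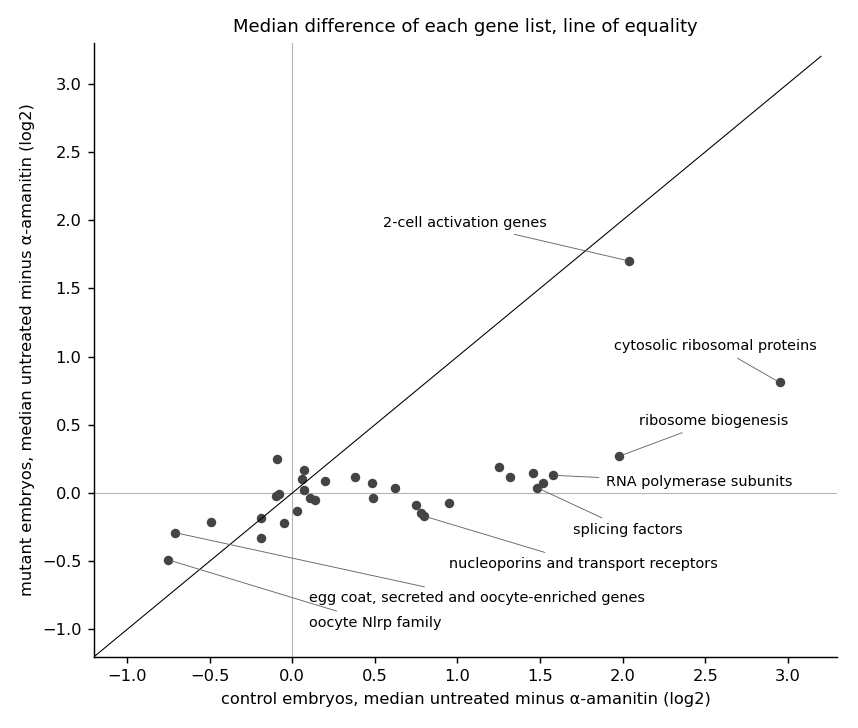
Each point is 1 gene list, with its median untreated minus α-amanitin difference in control embryos on the x axis and in mutant embryos on the y axis, both log2, and the line marks equal medians. The 2-cell activation genes lie near the line at 2.04 and 1.70, while cytosolic ribosomal proteins (2.95 and 0.81) and ribosome biogenesis genes (1.98 and 0.27) lie far below it.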

How the data were processed

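RNA of 40-embryo batches was amplified by whole transcriptome amplification and hybridised to Affymetrix arrays, per the labels' protocols. The values are log2 intensities as deposited by the authors, 1 per probe set and array, for 34760 probe sets. R 2.10.0 and affy are named in the submitters' processing notes, while their background correction and normalization are not stated there, and no detection calls were used. The array platform's annotation gave 1 symbol to 23376 probe sets, several to 1236 and none to the rest, and symbols were updated through RefSeq. Groups come from the array titles.

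Limma 3.58.1 in R 4.3.3 fitted 4 group means over all 11 arrays with empirical Bayes moderation (7 residual and 3.59 prior degrees of freedom) and no filter, for the control contrast and the interaction with genotype, with Benjamini-Hochberg adjustment over all probe sets and a threshold of 0.05. Recovery of known changes was tested on simulated data. Gene lists got counts and medians and no set test. Named were the 20 largest differences in each direction with groups that do not overlap and no clone name, per list the 4 called members of lowest adjusted p at most, and a fixed set (Rnf2, Ring1, Y-linked genes, Xist and egg genes among them). 1 gene that the rule names is not reported here. Members and lists were chosen with earlier results of these data known. The promoters come from RefSeq on GRCm38.p6. Alternatives were quantile, cyclic loess and median normalization, the brighter 50 percent of probe sets, the 6 control arrays alone, a trend prior, array weights, a replicate block, the median of a gene's probe sets, a minimum difference, and each array left out.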

Additional observations from a re-analysis of the deposited data

Results flagged for a closer look

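For 168 of the 221 genes named in the report, the untreated minus α-amanitin difference in control embryos and the same difference in mutant embryos were not equal by the interaction term of the limma fit (adjusted p below 0.05). Values are the control difference minus the mutant difference on the log2 scale, so the sign of a gene that was lower with α-amanitin is positive where control embryos showed more. The difference was larger in size in control embryos for 166 of the 168, and in mutant embryos for Zfp352 and Snord33. Over all genes the interaction was called for 17.9 percent. The genes were named for their size in control embryos, so this share among them is a description. The mutant α-amanitin group has 2 arrays.

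Among 2-cell activation genes the value was 1.93 for Pramel7, -1.17 for Zfp352, 1.45 for Pramel6, 1.59 for Obox6, 1.60 for Ubtfl1 and 2.27 for Sp110. For small nucleolar RNAs it was 0.76 for Snora65, 0.70 for Snora69 and -0.79 for Snord33. In the list of ribosome biogenesis genes it stood at 1.89 for Nop16, 1.88 for Rrp15, 1.81 for Bop1, 1.84 for Pno1 and 1.40 for Mdn1. Of RNA polymerase subunits, the values were 1.99 for Polr2l, 2.25 for Polr2i, 1.14 for Polr3b, 2.01 for Polr2e and 1.17 for Polr2a. Cytosolic ribosomal proteins had values of 3.61 for Rps25, 2.70 for Rpl30, 2.48 for Rpl41, 2.90 for Rps21 and 1.43 for Rpl23a. Within mitochondrial ribosomal proteins there were values of 2.27 for Mrps12, 1.37 for Mrps28, 1.82 for Mrpl20 and 2.19 for Mrpl34. Among translation factors the value was 1.84 for Eif3a, 2.15 for Eif3g, 2.01 for Pabpc1, 2.74 for Eif3m and 0.98 for Eif4e. For aminoacyl-tRNA synthetases it was 1.71 for Hars, 2.07 for Aimp2, 1.10 for Mars1 and 2.17 for Rars. In the list of splicing factors it stood at 1.82 for Sf3b5, 2.99 for Magoh, 1.64 for Eif4a3, 1.47 for Srsf2 and 1.96 for Snrpd2. Of proteasome subunits, the values were 3.22 for Psmb5, 2.77 for Psmb4, 2.00 for Psmb1, 2.66 for Psmd7 and -0.58 for Psme3. Chaperones had values of 1.39 for Cct6a, 2.17 for Fkbp4, 1.87 for Cct8, 2.34 for Tcp1 and -0.88 for Hsf1. Within nucleoporins and transport receptors there were values of 1.74 for Kpna1, 2.19 for Nxf1, 1.35 for Tpr, 1.37 for Ranbp2, -1.30 for Kpna7 and 2.38 for Kpna2.

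Among respiratory chain genes the value was 2.50 for Ndufa2, 1.72 for Cox7a1, 2.01 for Cox7c and 2.78 for Atp5md. For glycolysis genes it was 2.07 for Pfkfb3, 0.99 for Ldha, 1.02 for Pgk1, 0.88 for Pgam1, -0.85 for Slc2a1 and 0.47 for Slc2a3. In the list of nucleotide synthesis genes it stood at 1.77 for Prps1, 2.93 for Impdh2, 2.36 for Ppat, 2.67 for Nme2, 1.45 for Adsl and -1.0 for Mthfd2. Of DNA replication genes, the values were 2.74 for Cdc45, 2.35 for Rpa2, 2.85 for Gins3 and 1.29 for Orc1. Replication-dependent histones had values of 0.83 for H1f5, -0.49 for H1f1 and -1.19 for H2ac1. Within mitosis and cyclins there were values of 2.30 for Ccne1, 2.52 for Kif20a, 2.62 for Cdc20, 1.86 for Cdk1, 3.10 for Aurka, -0.90 for Cdc25b and 1.90 for Ccnb1. Among pluripotency and first-lineage regulators the value was 1.71 for Dppa4, -1.61 for Tcl1, 1.07 for Wwtr1, 0.94 for Tbx3, -1.17 for Pou5f1, 2.31 for Dppa5a and 2.08 for Nr5a2. For maternal-effect genes it was 2.58 for Trim28, 2.75 for Dppa3, 1.03 for Pms2 and 1.85 for Zar1l. In the list of egg coat, secreted and oocyte-enriched genes it stood at -1.52 for Bmp15, 2.01 for Tex19.1, -1.14 for Bcl2l10, -1.11 for Obox5, -0.92 for Dazl and -0.79 for Zp2. Of the oocyte Nlrp family, the values were -1.15 for Nlrp4e, -0.88 for Nlrp9a and -1.13 for Nlrp9c. Genes of meiotic arrest and resumption had values of -1.78 for Wee2, -1.41 for Mapk3 and -0.80 for Arpp19. Within genes of maternal mRNA storage and decay there were values of -1.60 for Eif4e1b, 1.26 for Dis3, 0.98 for Exosc2, 0.55 for Zfp36, -0.63 for Cnot7, -0.98 for Cnot6l, 0.85 for Cnot1 and 0.91 for Ythdf2.

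Among PRC1 and PRC2 subunits the value was 1.59 for Pcgf5, 1.62 for Rbbp4, 1.19 for Mtf2 and 1.10 for L3mbtl2. For DNA methylation and demethylases it was 1.91 for Tet1, 1.59 for Kdm3a, 1.96 for Kdm5b, -1.01 for Dnmt3l and 1.81 for Kdm1a. In the list of p53 targets it stood at 1.32 for Gadd45a, 2.26 for Sesn2 and 1.49 for Tigar. Of the integrated stress and unfolded protein response, the values were 1.58 for Ppp1r15b, 1.10 for Eif2ak3 and 1.78 for Dnajb9. Cumulus and granulosa markers had values of 1.93 for Gja1 and 1.64 for Amhr2. Within sperm markers there were values of -1.01 for Odf2 and 0.59 for Ldhc. Genes in no list that were lower with α-amanitin gave 2.58 for Cd63, 2.42 for Selenos, 2.07 for Pdxk, 2.42 for Alppl2, 3.01 for Gabarapl2, 1.75 for Slc34a2, 2.79 for Rpl36al, 1.90 for Cdc5l, 2.71 for Ctsc, 2.56 for Tomm20, 1.95 for Slc19a3 and 3.38 for Bola2. Genes in no list that were higher with α-amanitin gave -2.36 for Psenen, -1.89 for Pla2g4c, -2.10 for Stard3nl, -1.42 for Olfr976, -1.59 for G6pdx, -1.46 for Iqca, -1.23 for Trappc2, -1.26 for Sytl4, -1.72 for B4galt4, -1.64 for Arf3, -1.49 for Golph3l, -1.67 for Tmem243, -1.88 for Cdo1, -1.74 for Tram1, -1.51 for Taf9b, -1.53 for Pramel27, -1.86 for Cntnap1 and -1.16 for Rgs17.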

How the results depend on the processing

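Of 221 named genes 203 were called, and 13 of these lost the call under at least 1 alternative: Atf4, COX2, CYTB, Eif1, Gdf9, Ldhb, ND3, Npm3, Rnf2, Smcp, Snora69, Zar1 and Zp3. Quantile normalization raised the probe sets higher with α-amanitin to 6194 and the genes to 4650, against 3946 and 3056 on the deposited values. A difference of at least 1 as well as the threshold left 3406 probe sets, 2701 lower and 705 higher. With each control array left out, 8233 to 8612 probe sets were called, 4983 to 5254 lower and 3181 to 3629 higher, and genes were 3776 to 3964 lower and 2489 to 2818 higher. With each of the 11 arrays left out, the interaction had 4164 to 4940 probe sets. With the replicate number as a block 9277 probe sets were called, 5433 lower and 3844 higher, genes were 4094 lower and 2981 higher, and the interaction had 4603. Deviations of same-numbered arrays from their group means correlated at 0.15, 0.049 and 0.09, not all over 0.1, so the numbers were not taken to pair the arrays. Each array correlated best with its own number, a hint from the data and not the design, and the block ended the calls of Rnf2 and Smcp. Signs turned for values near 0: after quantile normalization for Arg2 (-0.01), DNA methylation genes (median -0.10) and Polycomb genes (-0.12, and -0.01 after cyclic loess). With an array left out, the range held both signs for Kdm5d (-0.03 to 0.06), Mos (-0.06 to 0.01), Ring1 (-0.13 to 0.09), Uba1y (-0.05 to 0.14), Usp17ld (-0.03 to 0.15), Usp9y (-0.04 to 0.12), Zfy1 (-0.07 to 0.22) and the Polycomb median (-0.04 to 0.14), and the sign turned with the brighter 50 percent of probe sets for the Y-linked median (-0.28, 1 gene). The cause was not tested. Signal over background limits the 13145 genes that were dim on all 6 arrays.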

Other observations

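Probe sets without a gene symbol were called as well: 651 of 10148 were lower and 573 higher with α-amanitin, and they are described by no name here.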
